A study of Macaca mulatta with 51 samples.

Results

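Subcutaneous abdominal adipose tissue (AT) and gastrocnemius skeletal muscle (SM) were compared in diet-induced obese (DIO) rhesus macaques before any dose of FGF21 was given. The comparison took in every pre-treatment sample with a column in the count table, 16 of the 48 libraries of the series: 10 of AT and 6 of SM. Both tissues had a column in the count table for 6 animals (19832, 20275, 21189, 22130, 23004 and 24849), and these 12 libraries gave every test between tissues. AT of the other 4 animals (20261, 20456, 21866 and 26292) entered the levels only, and pre-treatment SM of 20456 and 21866 was not analysed here. Each library came from 1 punch biopsy of 1 adult animal kept long on a diet rich in fat and sugar, males and ovariectomized females together, so that obesity and diet were common to both groups and there was no lean control. RNA was measured by stranded, paired-end sequencing of polyA RNA.

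AT stores energy as triglyceride in adipocytes, which take up and synthesize fatty acids, release them by lipolysis on hormonal cue, and secrete hormones such as leptin and adiponectin. A large part of its cells are not adipocytes but progenitors, endothelium and immune cells, and macrophages accumulate in AT in obesity. SM burns fuel for contraction. Its fibres are built on sarcomeres, come in slow oxidative and fast glycolytic types with their own myosin and troponin genes, and hold muscle forms of many enzymes of which other tissues use a second gene. The gastrocnemius of the calf is a mixed muscle with many fast fibres.

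Total counts were 17812175 to 23940980 per AT library and 14455195 to 20292476 per SM library. Levels are given as CPM, counts scaled to a common library total after TMM normalization, which are not per length and are compared between tissues only, never between genes. Fold changes are log2 ratios of AT over SM within animals, so that a negative value is higher in SM, and a signed value in brackets after a gene is its log2 fold change. A gene was called differentially expressed (DE) where its adjusted p was below 0.05 and AT and SM were more than 1 log2 unit apart. Several libraries stood apart. SM of animal 22130 held almost no RNA of slow fibre genes, and SM of animal 24849 held the most RNA of adipocyte genes among the SM libraries. AT of animal 23004 held the most RNA of KRT5, a keratinocyte gene, and of PIP, a sweat gland gene, among the AT libraries. The values of these libraries are given beside the results they touch. Biopsies hold mixtures of cells, so fewer cells of a type and less RNA per cell cannot be told apart.

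Markers of each tissue matched the labels. All 10 tested muscle fibre markers were DE with higher levels in SM, and their summed level was 53.9 to 151 CPM in AT against 230287 to 338100 CPM in SM. Of 9 tested adipocyte markers, 8 were DE with higher levels in AT. The exception was GPD1, the cytosolic glycerol 3-phosphate dehydrogenase, with 594 to 1612 CPM in AT (median 965) and 997 to 1915 CPM in SM (median 1514). Libraries of 1 tissue correlated over genes at 0.950 or more in AT and 0.926 or more in SM, against 0.621 to 0.767 between tissues.

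Most of the genes called in either direction were higher in AT. Of 13296 genes tested, 3935 were DE with higher levels in AT (29.6%) and 2803 with higher levels in SM (21.1%), 6738 in all (50.7%). By an unadjusted p under 0.05 alone, 9842 genes differed (74.0%). The 10 AT and 6 SM values did not overlap for 6471 genes (48.7%). Calls were more numerous towards AT, and the largest differences lay towards SM. The median log2 fold change was 2.14 among genes higher in AT and -1.76 among genes higher in SM, but beyond 64-fold there were 64 genes higher in AT and 287 higher in SM, and beyond 1024-fold there were 1 and 95. The split depends on the scaling: by library size alone it was 6215 to 1250, and the median of all genes moved by 0.84 towards AT. List medians are read against a median of 0.09 over all genes tested. List counts by library size alone are read against 6215 and 1250 of 13296 genes.

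SM RNA was concentrated on few genes. The 10 most abundant genes took 19.3 to 28.6% of the counts of an SM library (mean 23.7 ± 3.10, SD, n = 6) and 7.27 to 9.99% of an AT library (mean 8.27 ± 0.959, SD, n = 10). Within animals the difference was -15.3 ± 3.84 percentage points (SD, n = 6), AT lower in every animal (exact sign-flip test, two-sided, p = 0.03125, the smallest that 6 pairs allow). In SM these genes were contractile and glycolytic: MYH1, ACTA1, TTN, GAPDH, MYL1, CKM, TNNT3, TPM1, TNNC2 and NEB. In AT they were lipid, matrix and secretory genes: FABP4, SPARC, LPL, SCD, COL3A1, GSN, B2M, DCN, TIMP3 and COL1A2.

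Among the pathway lists, those of the sarcomere had the medians furthest from 0. All 15 tested fast fibre genes and all 22 tested genes of the sarcomere common to fibre types were DE with higher levels in SM, against 21.1% of all genes, with median log2 fold changes of -13.58 and -11.75. MYH1, the fast 2X myosin heavy chain, had 2.23 to 16.3 CPM in AT (median 5.22) and 48079 to 133296 CPM in SM (median 109925). No AT library came near the lowest SM library (log2 fold change -14.39 ± 0.67 SE, adjusted p = 2.49e-07). ACTA1, skeletal alpha-actin, had 1.20 to 10.7 CPM in AT (median 2.48) and 33990.4 to 57261 CPM in SM (median 37315) (log2 fold change -14.01 ± 0.67 SE, adjusted p = 2.96e-07). The giant scaffold proteins titin (TTN, -11.35) and nebulin (NEB, -13.24) showed log2 differences of the same order. The smallest differences of the lists were those of CAPZA2 (-1.82), an actin capping protein used in most cells, and, among the fast fibre genes, TPM1 (-6.83), a tropomyosin with forms outside muscle. Reads shared by near-identical genes, such as the fast myosin heavy chains MYH1, MYH2 and MYH4, could have been split between them by the counting.

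Slow fibre genes were higher in SM as well, 7 of 8 tested, with a median of -7.84, but not evenly across animals. MYH7, the slow myosin heavy chain, was at 3953 CPM in SM of 19832, 5925 in 20275, 5924 in 21189, 2344 in 23004 and 4755 in 24849, and at 3.42 in 22130, against 0.267 to 3.18 CPM in AT. The SM library of 22130 lay beside the highest AT library, and the other 5 SM libraries lay far above both. TNNI1, the slow troponin I, was at 4.65 CPM in SM of 22130 and 739 to 1869 CPM in the other SM libraries. MYL2, the slow regulatory light chain, was at 1.4 CPM against 1108 to 1894 CPM. Without animal 22130, 8 of 8 slow fibre genes were DE with a median of -8.44. The fast fibre list did not stand apart in this library, where its mean log2 level was 12.94 in a range of 12.60 to 13.47 over the SM libraries, nor did the respiratory chain list, at 7.45 in a range of 6.98 to 7.99.

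Genes that couple the nerve signal to contraction followed. Of 17 tested, 16 were higher in SM and 1 in AT (median -7.41). CACNA1S, the voltage sensor of the T-tubule, had 0 to 0.178 CPM in AT (median 0.0443) and 709 to 1279 CPM in SM (median 1012) (log2 fold change -14.18 ± 0.46 SE, adjusted p = 4.28e-08). Sarcolipin (SLN), which inhibits the calcium pump of the sarcoplasmic reticulum, had a log2 fold change of -11.79. The exception was CHRNE, the adult epsilon subunit of the acetylcholine receptor, which was low in both tissues at 1.71 CPM in AT and 0.682 CPM in SM (log2 fold change 1.48 ± 0.47 SE, adjusted p = 0.018) and lost its call with the 3 animals whose libraries share an identifier series. Of the subunits of the same receptor, CHRNA1 (-4.20), CHRNB1 (-4.67) and CHRND (-5.37) were higher in SM.

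The dystrophin complex anchors the sarcolemma to the matrix. Of 14 genes, 10 were higher in SM, 2 in AT and 2 were not DE (median -1.65). Dystrophin (DMD) was 103 CPM in AT and 372 CPM in SM on average and dystroglycan (DAG1), not DE, 232 CPM in AT and 292 CPM in SM. CAV3, the caveolin of muscle fibres, had a log2 fold change of -9.89. Utrophin (UTRN), the paralog of dystrophin found in many cell types, went the other way, with 176 to 355 CPM in AT (median 279) and 52.6 to 127 CPM in SM (median 87.4) (log2 fold change 1.60 ± 0.19 SE, adjusted p = 6.63e-05), as did LAMA2, a laminin of the basement membrane (1.24).

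Genes of rapid ATP supply were higher in SM throughout. All 7 tested genes of the phosphocreatine and adenylate system were DE, with a median of -6.52. CKM, muscle creatine kinase, had 0.534 to 6.23 CPM in AT (median 1.38) and 17784 to 26308 CPM in SM (median 22697) (log2 fold change -14.03 ± 0.51 SE, adjusted p = 6.13e-08). The spread of the 6 SM libraries was small beside the gap to AT. Myoglobin (MB), the oxygen store of muscle, had a log2 fold change of -12.77 and adenylate kinase AK1 of -6.52.

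Glycogen and glycolysis genes were mostly higher in SM, with single enzymes on the AT side. Of 17 glycogen genes, 12 were higher in SM and 2 in AT (median -3.10). Muscle glycogen phosphorylase (PYGM) had 5.57 to 15.9 CPM in AT (median 11.3) and 10292 to 14275 CPM in SM (median 12338), whereas the liver form (PYGL) was at 314 ± 85.4 CPM (SD) in AT and 10.0 ± 6.00 CPM in SM. Neither pair of ranges overlapped (log2 fold change -10.00 ± 0.34 SE, adjusted p = 4.84e-08 and log2 fold change 4.91 ± 0.30 SE, adjusted p = 1.37e-06). The brain form PYGB was also higher in AT (3.15). PPP1R3A, which targets protein phosphatase to muscle glycogen, had a log2 fold change of -13.14. Of 18 glycolysis genes, 10 were higher in SM, 5 in AT and 3 were not DE (median -2.78). Phosphofructokinase M (PFKM, -7.53), enolase 3 (ENO3, -12.72), GAPDH (-5.35) and LDHA (-3.34), which makes lactate, were on the SM side. The 5 on the AT side were ALDOC (7.10), PGAM1 (3.02), LDHB (2.79), ENO1 (1.89) and PFKL (1.62), each a form found outside muscle. Aldolase C (ALDOC), best known from brain, had 1045 to 3598 CPM in AT (median 1545) and 4.65 to 106 CPM in SM (median 7.83); its highest SM value, that of 24849, was far above the SM median and still below every AT library.

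Mitochondrial genes differed by a smaller and more even amount. Of 73 nuclear-encoded genes of the respiratory chain, 64 were higher in SM, 2 in AT and 7 were not DE, with a median log2 fold change of -1.67. By library size alone 23 were higher in SM, with a median of -0.83. ATP5A1, the alpha subunit of ATP synthase, was 655 CPM in AT and 2186 CPM in SM on average. The outliers of the list were tissue forms of cytochrome c oxidase. COX6A2 (-9.91) and COX7A1 (-4.06), the heart and muscle forms, were far higher in SM, and COX6A1 (3.03) and COX7A2 (1.51), the general forms, were higher in AT. The pyruvate and TCA cycle list had 15 of 25 genes higher in SM (median -1.26), among them IDH2 (-3.07) and MDH2 (-1.96). By library size alone 2 of the list were higher in SM, with a median of -0.41. Citrate synthase (CS), often taken as a gauge of mitochondrial content, was not DE at 367 CPM in AT and 599 CPM in SM (log2 fold change -0.66 ± 0.18 SE, adjusted p = 0.00896). Pyruvate carboxylase (PC), which feeds the cycle in lipogenic tissue, was the 1 gene higher in AT (2.74), with 184 to 401 CPM in AT (median 319) and 30.8 to 74.7 CPM in SM (median 42.5).

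Enzymes of fatty acid oxidation were called about as often as all genes. Of 22 genes, 8 were higher in SM, 3 in AT and 11 were not DE, against 50.7% of all genes called. By library size alone 2 were higher in SM, and the median of -0.53 turned to 0.32. HADHA and HADHB, the subunits of the trifunctional protein, had log2 fold changes of -0.27 and -0.44. The entry step differed by gene: CPT1B, the muscle carnitine palmitoyltransferase, was higher in SM (-2.92) and CPT1A, the liver form, in AT (1.88). ACSL1, which activates fatty acids for storage or oxidation, was 943 CPM in AT and 204 CPM in SM (2.19). Of 18 genes of branched-chain amino acid catabolism, 6 were higher in SM, 1 in AT and 11 were not DE. Of all genes, 21.1% were higher in SM, 29.6% in AT and 50.7% were called in either direction. Without animal 22130 3 were higher in SM and by library size alone 0, where the median of -0.58 turned to 0.27. Here the 2 transaminases parted: cytosolic BCAT1 was higher in AT (1.90) and mitochondrial BCAT2 in SM (-1.66).

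**Figure D1:**
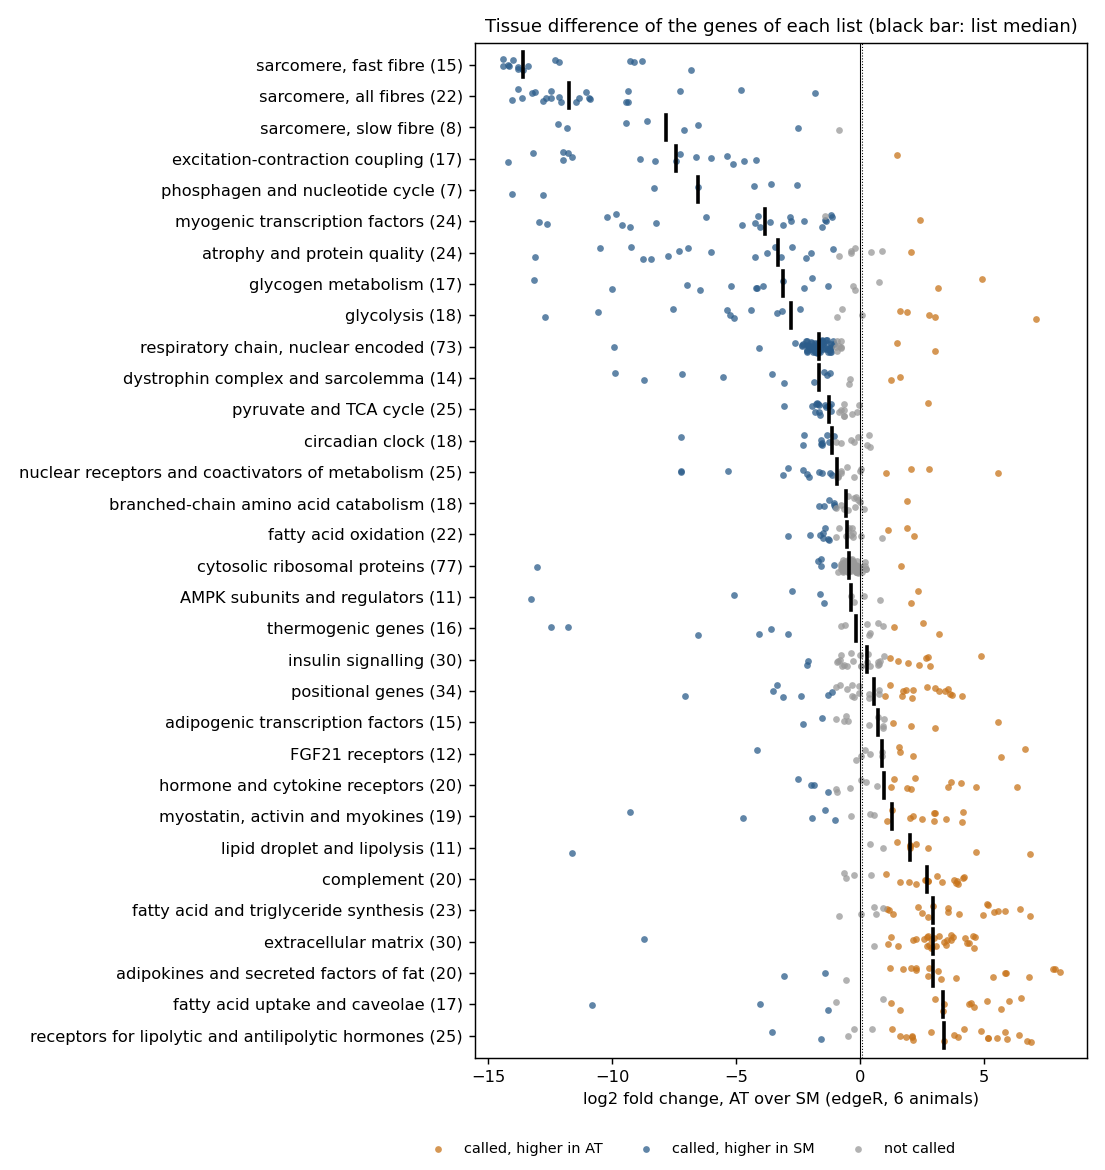
Log2 fold change, AT over SM, of each tested gene in 32 lists of pathways and functions (gene numbers in brackets), from the edgeR fit over 6 animals; colours give the call, black bars the list medians, and the dotted line the median of all genes. Sarcomere lists lie furthest to the left, with medians from -7.84 to -13.58, lipid and receptor lists to the right, and single genes cross to the other side in most lists.

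Many enzymes and structural proteins exist as a muscle gene and a second gene of the same family, and 27 such pairs were measured. For each, the log2 ratio of the muscle gene to the other gene was compared between tissues within animals, a measure that does not depend on the scaling. The ratio was higher in SM in 26 of 27 families, in all 6 animals each (exact sign-flip tests, p = 0.03125, the smallest that 6 pairs allow, adjusted over 27 families 0.0325). Each pair was chosen with 1 gene as the muscle form, and with earlier results of these data known. The tests therefore add nothing on the direction of the shifts, and the shifts are given for their size. In 20 families the muscle gene was DE towards SM and the other gene DE towards AT. Creatine kinase (CKM to CKB) shifted most, by 16.44 ± 1.35 (SD, n = 6), from -3.03 to -0.51 in AT of these animals to 13.52 to 15.83 in SM. Actin (ACTA1 to ACTB) shifted by 16.06 ± 0.93, glycogen phosphorylase (PYGM to PYGL) by 14.90 ± 0.63 and enolase (ENO3 to ENO1) by 14.57 ± 0.82. In the caveolae caveolin shifted by 13.78 ± 1.83 (CAV3 to CAV1) and cavin by 13.34 ± 0.86 (MURC to PTRF), and in mitochondria the adenine nucleotide translocator shifted by 7.70 ± 0.35 (SLC25A4 to SLC25A5).

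In 5 families only the muscle gene was DE. These were the 3 subunits of AMPK, the cellular energy sensor (PRKAG3 to PRKAG1 12.44 ± 1.21, PRKAA2 to PRKAA1 4.84 ± 0.56, PRKAB2 to PRKAB1 3.52 ± 1.25), the uncoupling proteins (UCP3 to UCP2, 12.05 ± 1.20) and the alpha subunit of phosphorylase kinase (PHKA1 to PHKA2, 7.75 ± 0.52). PRKAG3 had 0 to 0.582 CPM in AT (median 0.0919) and 1127 to 2236 CPM in SM (median 1665), while PRKAG1 was at 106 CPM in AT and 126 CPM in SM. In acetyl-CoA carboxylase only the lipogenic ACACA was DE (3.56), and ACACB, which governs fatty acid entry into mitochondria, was not (0.64), so that the ratio of ACACB to ACACA still shifted by 2.91 ± 0.37. The exception was hexokinase. HK2, the insulin-responsive form of muscle and fat, was at 61.6 CPM in AT and 68.1 CPM in SM and HK1 at 189.5 CPM in AT and 361 CPM in SM, neither was DE, and the ratio of HK2 to HK1 moved by -1.02 ± 1.26 (exact p = 0.125). FABP3 to FABP4 spread widest among the SM libraries, from -2.32 in 24849 to 2.49.

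**Figure D2:**
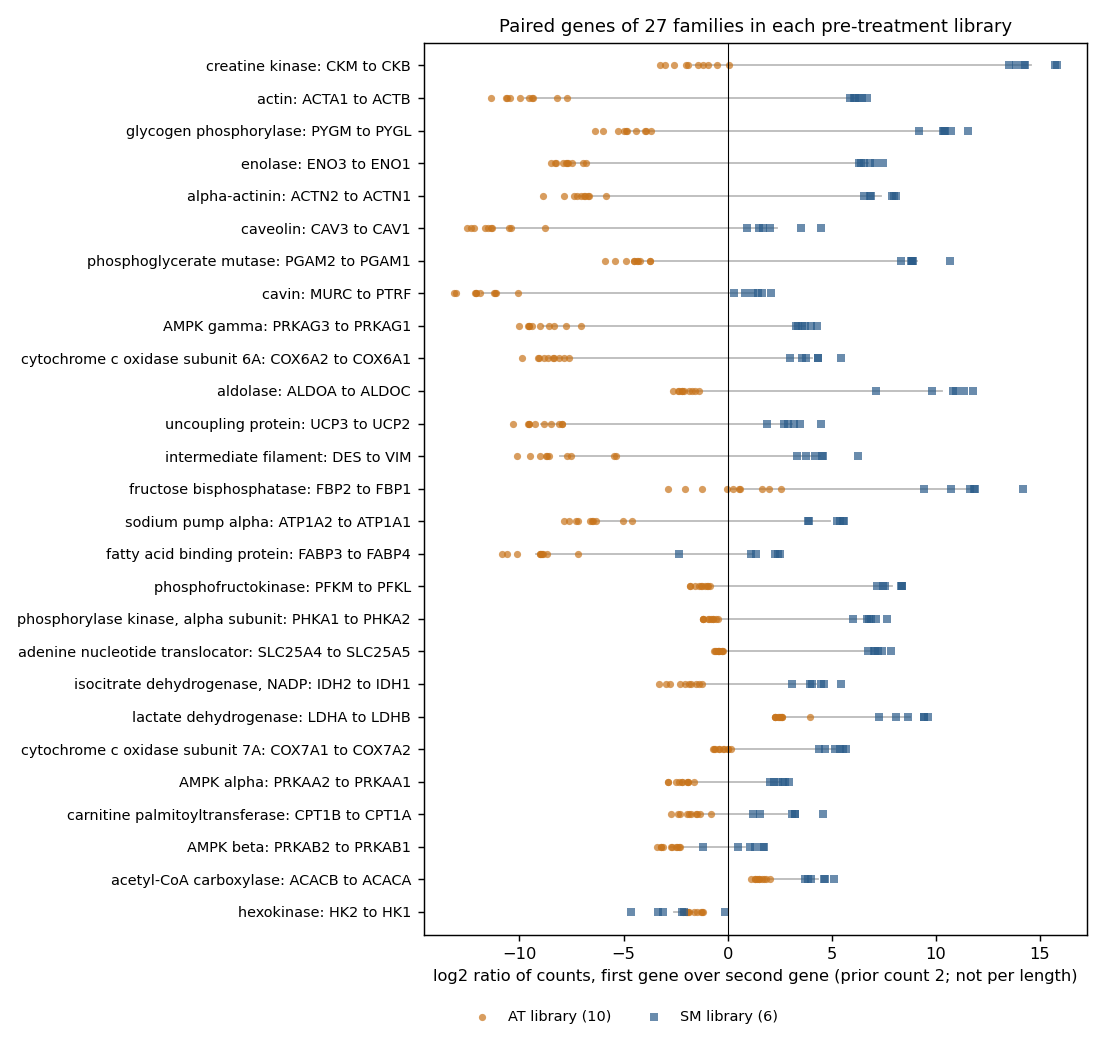
Log2 ratio of the counts of a muscle gene to those of a second gene of its family (prior count 2, not per length) in 27 families, with 1 point per library, circles for 10 AT and squares for 6 SM, and a line between the means. The points of the tissues are apart in every family except hexokinase; 1 SM library, that of animal 24849, lies towards AT for FABP3 to FABP4.

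Genes that make fatty acids and triglyceride were higher in AT or not DE. Of 23 genes of fatty acid and triglyceride synthesis, 18 were higher in AT and 0 in SM (median 2.92, against 29.6% of all genes higher in AT). DGAT2, which makes triglyceride, had 1868 to 3883 CPM in AT (median 2599.6) and 11.8 to 196 CPM in SM (median 15.6) (log2 fold change 6.83 ± 0.69 SE, adjusted p = 2.65e-05). ELOVL5 (6.45), which elongates polyunsaturated fatty acids, and FASN (5.84), fatty acid synthase, were of the same order. SCD, the stearoyl-CoA desaturase, spread widely, with 734 to 18410.0 CPM in AT (median 2152) and 30.3 to 1098 CPM in SM (median 48.8). Its highest SM value, 1098 CPM in 24849, lay above the lowest AT value, so that the ranges overlapped (log2 fold change 5.13 ± 1.02 SE, adjusted p = 0.00155). GPD1, SREBF1, MLXIPL, ACACB and SLC25A1 were not DE, the first 3 of them a glycerol 3-phosphate dehydrogenase and the lipogenic transcription factors SREBP1 and ChREBP.

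Genes of fatty acid uptake lay on the same side. Of 17 genes, 12 were higher in AT and 3 in SM (median 3.33). FABP4, the adipocyte fatty acid binding protein, had 7099 to 17793 CPM in AT (median 8872) and 47.3 to 709 CPM in SM (median 92.7), LPL, which frees fatty acids from lipoproteins, 4904 to 15365 CPM in AT (median 8223) and 67.1 to 422 CPM in SM (median 96.8), and the fatty acid translocase CD36 3043 to 4496 CPM in AT (median 3734) and 36.7 to 299.7 CPM in SM (median 67.0). The lowest AT library was above the highest SM library for each of the 3 genes. Those higher in SM were FABP3 (-4.05), MURC (-10.82) and VLDLR (-1.31). Around the lipid droplet, 8 of 11 genes were higher in AT, led by PLIN1, the coat of the adipocyte droplet, with 1338 to 2502 CPM in AT (median 1802) and 6.74 to 154 CPM in SM (median 13.4) (log2 fold change 6.84 ± 0.72 SE, adjusted p = 3.27e-05). The 1 gene higher in SM was FITM1, a droplet-forming protein of muscle, with 0 to 0.0871 CPM in AT (median 0.0392) and 86.6 to 227 CPM in SM (median 107). LIPE, PNPLA2, CIDEC and PLIN5 were not analysed here.

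Adipokines and other secreted factors of fat were higher in AT for 17 of 20 genes (median 2.96). Adiponectin (ADIPOQ) had 1285 to 3517 CPM in AT (median 2259) and leptin (LEP) 1338 to 3159 CPM in AT (median 2159). In SM, ADIPOQ was at 2.50 to 10.1 CPM in 5 libraries and at 188 CPM in 24849, and LEP at 2.28 to 7.65 CPM and at 75.4 CPM. SM of 24849 was thus above the other SM libraries and below all AT libraries for both genes. FAM19A4, a chemokine-like secreted protein, had 34.8 to 126 CPM in AT (median 77.8) and 0.0816 to 1.66 CPM in SM (median 0.170) (log2 fold change 7.79 ± 0.54 SE, adjusted p = 3.26e-06). NAMPT, an enzyme of NAD synthesis (-1.40), and NRG4, an epidermal growth factor-like hormone described in brown fat (-3.09), were higher in SM, NRG4 at 4.53 CPM in AT and 40.2 CPM in SM. APLN was not DE (-0.57). Without animal 24849, whose SM library was highest in adipocyte markers, 16 of 20 were higher in AT with a median of 3.19.

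Other genes of large differences lay outside the lipid lists. CHIT1, a chitinase of activated macrophages, had 390.3 to 5762 CPM in AT (median 2016) and 0.190 to 11.7 CPM in SM (median 2.33), and did not overlap between tissues (log2 fold change 9.04 ± 0.81 SE, adjusted p = 1.31e-05). All 18 macrophage markers were also higher in AT, and their part in the difference of CHIT1 was not tested. MAL2, a membrane traffic protein of epithelia, had 122 to 236 CPM in AT (median 179) and 0.285 to 11.9 CPM in SM (median 0.625) (7.44), and MMP7, a matrix metalloprotease, 5.11 to 169 CPM in AT (median 43.2) and 0 to 1.66 CPM in SM (median 0) (7.50). The largest fitted fold change towards AT, that of PIP, the prolactin-induced protein of sweat and mammary gland, rested on 1 library: AT of 23004 held 1006 CPM and the other 9 AT libraries at most 0.787 CPM, with 1 count in the SM libraries together. In the same AT library KRT5, a keratinocyte gene, was at 17.2 CPM against 0.7 to 2.7 CPM in the others. CTSV, a cathepsin, varied from 0 to 244 CPM between AT libraries, with an AT median of 9.85 CPM.

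Nearly all myogenic transcription factors were DE towards SM, whereas adipogenic ones were called towards AT about as often as all genes. Of 24 myogenic factors, 22 were higher in SM and 1 in AT (median -3.84). MYOD1, the founding myogenic factor, had 20.4 to 74.3 CPM in SM (median 57.1) and 0 counts in all 10 AT libraries, which makes it at least 429-fold higher in SM at a floor of 3 counts per library. The factor higher in AT was MYOCD, the coactivator of smooth muscle genes, at 1.46 CPM in AT and 0.347 CPM in SM. Of 15 adipogenic factors, 4 were higher in AT, 2 in SM and 9 were not DE (median 0.71), against 29.6% of all genes higher in AT. By upper quartile scaling 7 were higher in AT, against 4270 of 13296 genes, and by library size alone 9, against 6215. PPARG, the master regulator of adipocyte differentiation, had 174 to 328 CPM in AT (median 244) and 2.56 to 23.1 CPM in SM (median 3.50) (log2 fold change 5.56 ± 0.47 SE, adjusted p = 9.51e-06), and EBF1 100.5 to 180.4 CPM in AT (median 135) and 9.31 to 49.6 CPM in SM (median 14.4) (log2 fold change 3.03 ± 0.33 SE, adjusted p = 3.97e-05). KLF5 (-2.29) and ZBTB16 (-1.55) were higher in SM. CEBPA was not analysed here.

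Homeobox and T-box genes keep a record of a tissue's position in the body, here the abdomen and the hind limb. Of 34 tested, 15 were higher in AT, 7 in SM and 12 were not DE, against 29.6% of all genes higher in AT and 21.1% in SM. By library size alone 19 were higher in AT and 4 in SM, against 6215 and 1250 of 13296 genes. All 7 tested HOXB genes were higher in AT, from HOXB6 (2.09) to HOXB7 (3.70). On the SM side were HOXC10 (-3.13), with 12.2 to 20.2 CPM in AT (median 14.1) and 81.8 to 151 CPM in SM (median 135), HOXC11 (-7.04), HOXC9 (-1.30) and HOXA9 (-2.39), while HOXC5, HOXC6 and HOXC8 were higher in AT, with log2 fold changes of 1.86, 1.70 and 1.22. TBX5, a T-box factor of the forelimb and upper trunk, was higher in AT (3.63), and PITX1, a factor of hind limb identity, was low in both tissues, at 0.0417 CPM in AT and 0.507 CPM in SM, and DE towards SM. TBX15 (-3.62) was higher in SM and MEIS2 (4.12), a cofactor of HOX proteins, in AT.

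Nuclear receptors and the clock leaned to SM. Of 25 receptors and coactivators of metabolism, 12 were higher in SM and 4 in AT, against 21.1% and 29.6% of all genes. By library size alone 8 were higher in SM and 4 in AT. The coactivator of mitochondrial biogenesis PPARGC1A was 5.47 CPM in AT and 91.4 CPM in SM (-2.89), ESRRA, its nuclear receptor partner, 25.7 CPM in AT and 114 CPM in SM (-2.13), and PPARA, the fatty acid receptor, 20.9 CPM in AT and 64.5 CPM in SM (-1.67). NR4A1, an immediate early gene, had 3.09 to 18.7 CPM in AT (median 8.15) and 137 to 704 CPM in SM (median 328) (log2 fold change -5.33 ± 0.46 SE, adjusted p = 1.15e-05). The glucocorticoid receptor NR3C1 was not DE, with a log2 fold change of 0.01 ± 0.16 SE. In the circadian clock, 10 of 18 genes were higher in SM and 0 in AT (median -1.15), among them PER1 (-1.53) and PER2 (-2.25), of the negative arm of the clock. By library size alone 3 were higher in SM and 3 in AT, with a median of -0.31.

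Genes of insulin signalling were called less often than the 50.7% of all genes with TMM scaling, but not by library size. Of 30 tested, 8 were higher in AT, 2 in SM and 20 were not DE, among them the receptor INSR (-0.53), IRS1 (-0.65), AKT1 (0.04) and AKT2 (0.05), against 29.6% of all genes higher in AT and 21.1% in SM. By library size alone 16 were higher in AT and 2 in SM, against 6215 and 1250 of 13296 genes. The glucose transporter SLC2A4 (GLUT4) was higher in SM, with 116 to 208 CPM in AT (median 151) and 514 to 794 CPM in SM (median 606), and no overlap (log2 fold change -2.09 ± 0.22 SE, adjusted p = 2.56e-05). PDE3B, the phosphodiesterase through which insulin restrains lipolysis, was higher in AT, with 34.8 to 121 CPM in AT (median 65.1) and 0.523 to 7.59 CPM in SM (median 1.53) (log2 fold change 4.88 ± 0.51 SE, adjusted p = 3.29e-05). PIK3R1 (2.66), a regulatory subunit of PI3-kinase, was higher in AT and the adaptor GRB10 (-2.16) in SM.

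Receptors for hormones that start or restrain lipolysis were higher in AT for 20 of 25 genes, with 2 higher in SM and 3 not DE (median 3.40). Of all genes, 29.6% were higher in AT and 21.1% in SM. The log2 fold changes of the list reached -3.57 on the SM side. The antilipolytic ones included the prostaglandin receptor PTGER3, with 190.3 to 397 CPM in AT (median 249) and 1.15 to 15.3 CPM in SM (median 1.57), the niacin and ketone receptor HCAR2 (6.42), the lactate receptor HCAR1 (5.84), ADRA2A (4.87) and ADORA1 (3.40). Of the lipolytic ones, the natriuretic peptide receptor NPR1 (2.84), the thyrotropin receptor TSHR (5.92) and ADRB1 (3.78) were higher in AT. FFAR4, the receptor for long-chain fatty acids, was at 53.6 ± 14.9 CPM (SD) in AT and 0.650 ± 1.22 CPM in SM (log2 fold change 6.88 ± 0.77 SE, adjusted p = 4.98e-05). NPR3, which clears natriuretic peptides, was 996 CPM in AT and 34.5 CPM in SM (5.16). ADRB3 was not analysed here.

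FGF21, the hormone given later, acts through an FGF receptor together with the coreceptor KLB. Of 12 genes of this pathway, 5 were higher in AT, 1 in SM and 6 were not DE, against 29.6% of all genes higher in AT and 21.1% in SM. By library size alone 8 were higher in AT, against 6215 of 13296 genes. KLB had 41.4 to 107 CPM in AT (median 73.5) and 0 to 4.92 CPM in SM (median 0.548), its highest SM value, that of 24849, lying below every AT library (log2 fold change 6.65 ± 0.65 SE, adjusted p = 2.10e-05). FGFR1, the receptor that KLB pairs with in fat, had 158 to 239 CPM in AT (median 182) and 38.2 to 117 CPM in SM (median 66.7) (log2 fold change 1.57 ± 0.23 SE, adjusted p = 0.000231), and FGFR2 was 28.9 CPM in AT and 0.692 CPM in SM (5.68). FGFR4 went the other way at 0.295 CPM in AT and 6.38 CPM in SM (-4.16). FGF21 itself was at 0.0832 to 1.56 CPM in AT (median 0.492) and 0 to 1.47 CPM in SM (median 0.113) and not DE. Of the feedback genes of FGF signalling, DUSP6 (2.14) and SPRY4 (1.61) were higher in AT, and SPRY1 (0.40), SPRY2 (0.02) and ETV5 (0.89) were not DE.

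Of 20 further receptors for hormones and cytokines, 10 were higher in AT and 4 in SM, against 29.6% and 21.1% of all genes. The adiponectin receptors parted, with ADIPOR1 higher in SM at 147 ± 18.2 CPM (SD) in AT and 513 ± 139.7 CPM in SM (-1.85), and ADIPOR2 higher in AT at 473 ± 87.7 CPM in AT and 119 ± 20.7 CPM in SM (1.90). The oxytocin receptor OXTR was 276 CPM in AT and 2.70 CPM in SM (6.34) and the leptin receptor LEPR 87.3 CPM in AT and 21.9 CPM in SM (2.21). Of 19 genes of myostatin, activin and the myokines, 11 were higher in AT and 5 in SM, against the same shares of all genes. By library size alone 3 were higher in SM. Myostatin (MSTN), the brake on muscle growth, had 0 to 0.229 CPM in AT (median 0.0218) and 17.6 to 86.6 CPM in SM (median 36.6), while INHBA, which encodes the related activin A, was higher in AT (4.10), as was ACVR1C, a receptor of this family (3.45). FNDC5, the precursor of irisin, was 24.3 CPM in AT and 99.3 CPM in SM (-1.96).

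Of the thermogenic genes, 3 of 16 were higher in AT and 6 in SM, against 29.6% and 21.1% of all genes. Without animal 19832 or without 20275 1 was higher in AT. By library size alone 6 were, against 6215 of 13296 genes, and the median of -0.16 turned to 0.67. UCP1, the uncoupling protein of brown fat, was at 0.0416 to 4.76 CPM in AT (median 0.516), with 3 counts in the SM libraries together, and was DE towards AT (adjusted p = 0.0225). UCP3 had 0.0416 to 0.267 CPM in AT (median 0.134) and 355 to 939.5 CPM in SM (median 758). ELOVL3 (1.06 CPM in AT and 0.610 CPM in SM), DIO2 (0.29) and TMEM26 (0.39) were not DE. Of the AMPK regulators, STK11 (-1.60) was higher in SM and CAMKK2 (2.35) in AT. The median of the 11 AMPK genes, -0.36, turned to 0.48 by library size alone. Of these genes 2 were higher in AT and 5 in SM, and by library size alone 4 and 3.

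Extracellular matrix genes were higher in AT almost without exception, 28 of 30 (median 2.94). SPARC, a collagen-binding glycoprotein, had 5486 to 12027 CPM in AT (median 9229) and 401 to 1488 CPM in SM (median 545), and COL3A1 3031 to 9713 CPM in AT (median 5248) and 112 to 1988 CPM in SM (median 391) (log2 fold change 3.50 ± 0.49 SE, adjusted p = 0.000175). Collagen varied among the SM libraries: COL1A1 was at 54.7 CPM in 19832, 143 in 20275, 142 in 21189, 245 in 22130, 633 in 23004 and 1512 in 24849. COL19A1, a minor collagen of the basement membrane zone, was the 1 gene higher in SM, with 0 to 0.178 CPM in AT (median 0) and 1.45 to 16.7 CPM in SM (median 7.45), and LAMB2 was not DE (0.57). Of 20 complement genes, 16 were higher in AT and 0 in SM (median 2.69), with C2 (4.18), CFB (3.95) and the adipsin gene CFD (3.87) among them.

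Protein quality genes leaned to SM, 17 of 24 (median -3.30), among them the muscle ubiquitin ligases TRIM63 (-7.74) and FBXO32 (-3.76). The small heat shock proteins HSPB7 (-8.74) and HSPB3 (-6.95) were higher in SM, whereas CRYAB, of the same family, was not DE at 1737 CPM in AT and 1648 CPM in SM. Cytosolic ribosomal proteins were the list with the largest share of genes not DE. Of 77 tested, 71 were not DE, 5 were higher in SM and 1 in AT (1 and 5 by library size alone), and the median of -0.43 turned to 0.42 by library size alone. Within it, RPL3 and RPL3L, alternative forms of 1 ribosomal protein, parted: RPL3 had 214 to 353 CPM in AT (median 297) and 71.0 to 118 CPM in SM (median 92.7) (log2 fold change 1.63 ± 0.16 SE, adjusted p = 1.55e-05), and RPL3L, the form of striated muscle, 0 to 0.134 CPM in AT (median 0.0729) and 365 to 955 CPM in SM (median 482) (log2 fold change -13.01 ± 0.31 SE, adjusted p = 2.38e-08).

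Markers of other cell types were mostly higher in AT. All 18 macrophage markers were (median 3.40), with a summed level of 818 to 3035 CPM in AT and 70.1 to 395 CPM in SM. CD68 had 67.9 to 509.8 CPM in AT (median 217) and 2.83 to 18.4 CPM in SM (median 5.88) and MSR1, a scavenger receptor, 12.1 to 320.3 CPM in AT (median 119) and 0 to 1.52 CPM in SM (median 0.312). All 9 T and NK cell markers were higher in AT too (median 2.95), at low levels, with CD8A at 3.26 CPM in AT and 0.394 CPM in SM. Blood endothelium had 11 of 12 markers higher in AT (median 1.74), VWF at 599 CPM in AT and 99.4 CPM in SM. Progenitors and fibroblasts had 11 of 13 (median 2.66), and of these PI16 was 566 CPM in AT and 42.4 CPM in SM. Mast cells had 4 of 6, and neutrophils 3 of 5. Lymphatic endothelium had 2 of 6, near the 29.6% of all genes. This count was 4 without animal 24849 and 1 without 19832, 20275, 22130 or 23004.

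A few markers broke the pattern. Of 9 mural cell genes, 6 were higher in AT and 2 in SM, against 29.6% and 21.1% of all genes. Those higher in SM were ABCC9, which also forms the potassium channel of muscle (-2.25), and HIGD1B (-1.63). B and plasma cell markers did not lean either way (1 higher in AT and 1 in SM of 6), at 14.7 CPM or less in sum. Haemoglobin HBB, a marker of red blood cells, had 256 to 7963 CPM in AT (median 2149) and 11.4 to 178 CPM in SM (median 54.5), and did not overlap between tissues (log2 fold change 4.97 ± 0.92 SE, adjusted p = 0.00104); the other tested erythroid markers were also higher in AT. HBA1 and HBA2 had 0 counts in all 16 libraries. S100B, of Schwann cells and also of adipocytes, was 205 CPM in AT and 6.39 CPM in SM, whereas MBP, a myelin gene, was not DE (0.02). Of the Schwann cell markers 4 of 7 were higher in AT. Of 3 keratinocyte markers, KRT5 was higher in AT, 1 was not DE, and TP63 was higher in SM at 0.641 CPM in AT and 63.2 CPM in SM. In SM, satellite cell markers were higher, 5 of 5 (median -9.28, or -6.00 with MYF5 and CALCR, which had 0 counts in AT, at their bounds), with PAX7, the marker of these stem cells, at 8.81 to 26.6 CPM in SM (median 14.9).

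**Figure D3:**
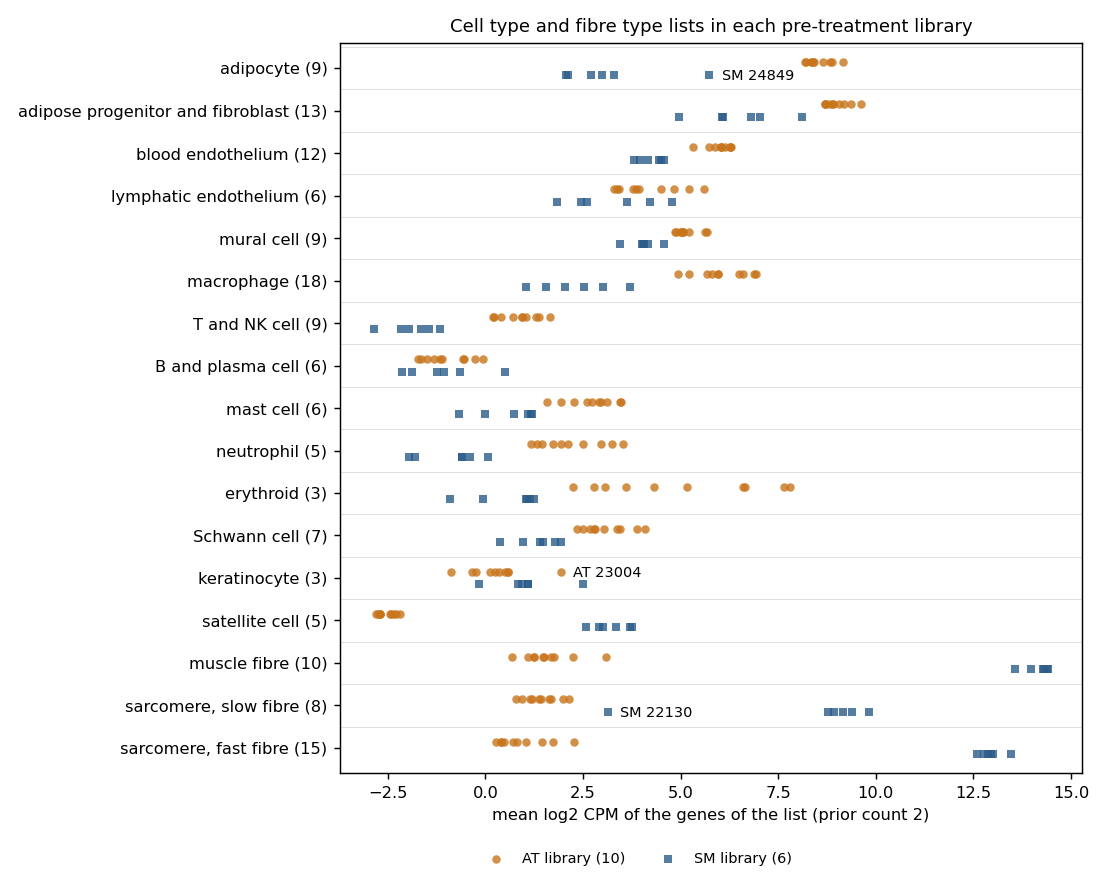
Mean log2 CPM of the tested genes of 17 cell type and fibre type lists (gene numbers in brackets) in each pre-treatment library, circles for 10 AT and squares for 6 SM. Most non-muscle lists lie higher in AT; SM 22130 lies at 3.13 on the slow fibre list against 8.77 to 9.82 in the other SM libraries, and SM 24849 at 5.73 on the adipocyte list against 2.08 to 3.30.

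Libraries of SM differed from each other more than those of AT. The median SD of log2 CPM over genes was 0.422 among the 6 SM libraries and 0.309 among the 6 AT libraries of the same animals, and it was larger in SM for 8956 of 13296 genes (67.4%). The coefficient of variation between animals estimated by edgeR was 0.382 for SM, against 0.318 for AT. On the mean log2 scale SM of 24849 was highest in adipocyte (5.73), progenitor and fibroblast (8.12), macrophage (3.70) and matrix (7.64) genes. In the other SM libraries the progenitor and matrix lists ran in a similar order, and the adipocyte list did not follow them. Of these libraries SM of 23004 was highest in progenitor and fibroblast (7.04) and matrix (6.79) genes, with adipocyte genes at 2.11. SM of 19832 was lowest in progenitor and fibroblast (4.96), macrophage (1.03) and matrix (5.04) genes, but not in adipocyte genes (2.99). The part of these cell types in the AT to SM differences was not tested gene by gene. Without animal 24849 the 8 adipocyte markers stayed DE and their list median went from 6.47 to 7.37.

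The later biopsies of the same animals give the same measures again. Slow fibre genes took 0.0322% of the counts of slow and fast fibre genes in pre-treatment SM of 22130, and 1.18% and 1.86% in its post-treatment and washout biopsies, while the other pre-treatment SM libraries held 2.52 to 6.72%. The lowest value was that of the 1 pre-treatment biopsy. Over all 21 SM libraries the share ran up to 14.9%. Some later libraries of other animals were low as well, at 0.376% in 21866 post-treatment, and 0.889% post-treatment and 1.24% at washout in 19832. The 8 adipocyte markers together held 361 CPM (by library size) in pre-treatment SM of 24849, 544 CPM post-treatment and 27.9 CPM at washout, against 8.57 to 124 CPM in all other SM libraries. The high values came in 2 of 3 biopsies of that animal.

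**Figure D4:**
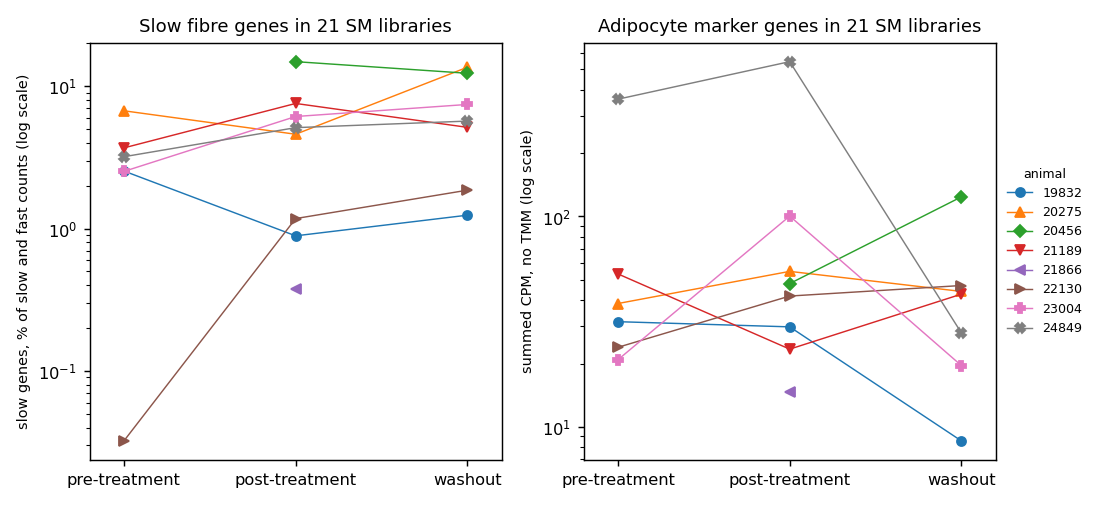
Left, the counts of 7 slow fibre genes as a percentage of those of 7 slow and 15 fast fibre genes; right, the summed CPM of 8 adipocyte markers (scaled by library size), in the 21 SM libraries by time point on log axes, with 1 line per animal. Pre-treatment SM of 22130 lies at 0.0322%, below all others, and 24849 lies at 361 and 544 CPM before it falls to 27.9 CPM at washout.

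Few genes passed the test of a difference between animals common to both tissues. The animal effect of the same model passed an adjusted p of 0.05 for 4 genes of 13296 (0.0301%), against 933 at an unadjusted p under 0.05 (7.02%). The 4 were CTSV, PIP, ADAMDEC1 and SCGB1D4, each of which was at or near 0 in 1 tissue, so that its spread between animals was that of the other tissue; SCGB1D4, a secretoglobin that was named after its values were seen, reached 19.1 CPM in SM. By DESeq2's likelihood ratio test 361 genes passed and by limma voom 15, of which 1 each was among the 4. Without animal 22130 0 genes passed, without 21189 1, and without 20275 or 24849 2 each.

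Next in the order of p were RPS15A (adjusted p = 0.0593) and HRASLS2 (adjusted p = 0.0772), which missed the threshold but varied in step in both tissues. RPS15A, a protein of the small ribosomal subunit, was at 137 CPM in AT and 188 CPM in SM of 19832, 51.3 and 85.5 in 20275, 56.1 and 64.2 in 21189, 14.2 and 8.83 in 22130, 114 and 147 in 23004, and 40.9 and 31.9 in 24849. Animal 22130 was the lowest and 19832 the highest in both. Over all time points, and scaled by library size, RPS15A was at 15.7 to 16.7 CPM in the 3 AT libraries of 22130 and 40.9 to 266 CPM in the other 24, and at 5.52 to 8.44 CPM in its 3 SM libraries and 20.4 to 279 CPM in the other 18. RPS15A has near-identical copies elsewhere in primate genomes, and how reads were shared among them is not given in the sources used here. HRASLS2, a phospholipase and acyltransferase, was at 62.1 CPM in AT and 135 CPM in SM of 21189, and at 1.12 to 7.91 CPM in the other 9 AT libraries and 2.37 to 24.6 CPM in the other 5 SM libraries. Over all 3 time points, and scaled by library size, HRASLS2 was at 30.2 to 82.5 CPM in AT and 51.4 to 92.2 CPM in SM of 21189. The other animals held 1.33 to 10.2 CPM in AT and 0.364 to 18.5 CPM in SM.

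**Figure D5:**
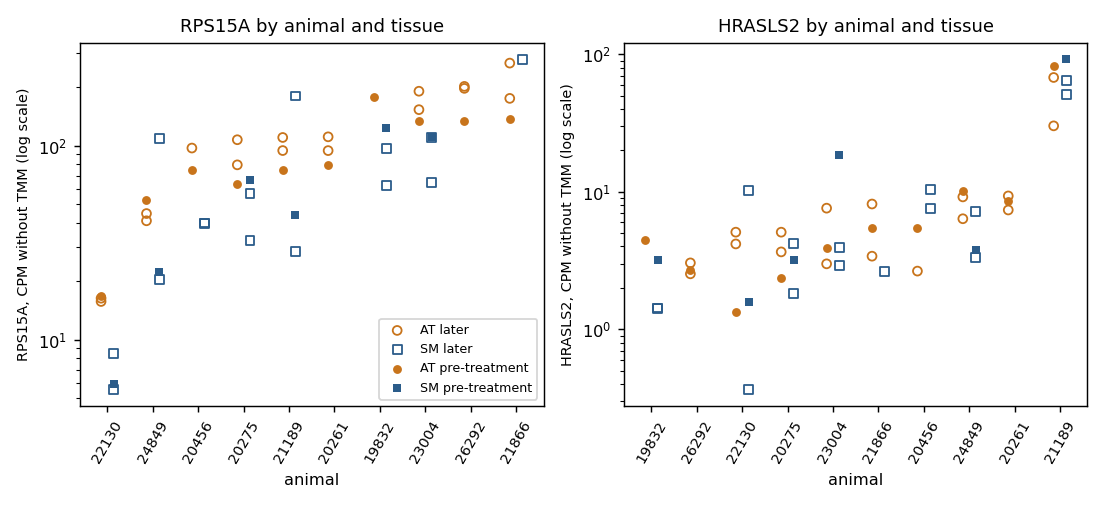
CPM of RPS15A and HRASLS2 (scaled by library size, log axes) in all 48 libraries by animal, circles for AT and squares for SM, filled before treatment and open later; animals are ordered by their median. RPS15A is lowest in animal 22130 in both tissues, at 15.7 to 16.7 and 5.52 to 8.44 CPM, and HRASLS2 is highest in 21189.

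Some genes were all but confined to 1 tissue. A mean of at least 5 CPM in 1 tissue, with every library of the other under 0.5 CPM, was met by 108 of 9378 genes in SM and 23 of 9900 in AT. Those of SM included XIRP2, MYPN, CACNA1S, SMYD1, UCP3, TRDN, PPP1R3A, RPL3L and COX6A2, most of them sarcomeric, triadic or metabolic genes named above. Apart from PIP and CTSV, the AT genes had modest levels, the highest being CHI3L2, a chitinase-like protein, at 13.5 CPM on average, and several were immune genes, such as SLAMF7, DCSTAMP, IL1RN and CXCL1. ADIPOQ, LEP and PLIN1 were not among them, since all SM libraries were above the limit of 0.5 CPM for each.

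The tissue differences were also measured in the biopsies taken after treatment and at washout, which share animals with the pre-treatment ones. Of the 6738 genes DE before treatment, 6668 were tested post-treatment (7 animals), where 27.5% of all genes were higher in AT and 18.4% in SM; 6646 of these genes had the same sign and 5509 were DE in the same direction, with 0 DE in the opposite direction. At washout (5 animals; 29.0% and 20.2% of all genes) 6715 were tested, 6567 had the same sign, 5376 were DE in the same direction and 26 in the opposite one. The median of the sarcomere list common to fibre types was -11.75 before treatment, -11.74 after it and -11.61 at washout. That of the macrophage markers went from 3.40 to 4.15 and 2.86 and that of the adipocyte markers from 6.47 to 5.90 and 7.16. MYH7 had log2 fold changes of -12.16 before treatment, -12.04 after it and -15.45 at washout, and KLB of 6.65, 5.65 and 6.57.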

How the data were processed

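Gene counts were measured in AT and SM of DIO rhesus macaques, and the 16 pre-treatment libraries were used here. Per the labels and the study's methods, the authors aligned reads with STAR to the MacaM rhesus genome, counted them per gene and named genes by their human homologs; the deposited values are raw counts per gene. The authors left out SM libraries with few mapped reads. How reads shared by near-identical genes were counted is not given in the sources used here. Of 16103 rows, 70 repeated another and were dropped. Genes with at least 0.5 CPM in 2 or more of the 12 paired libraries were kept (13296).

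Counts were scaled by TMM and fitted with edgeR 4.0.16 (quasi-likelihood, robust, R 4.3.3) with tissue and animal as terms, and p-values were adjusted by Benjamini-Hochberg over all genes. The voom weights that the study's authors used (limma 3.58.1) and DESeq2 1.42.0 were alternatives. Levels are CPM with the mean or range over 10 AT and 6 SM libraries, and log2 levels use a prior count of 2. A gene at 0 counts in a tissue was given a floor of 3 counts per library, which is 0.247 CPM in SM and 0.124 CPM in AT, and covers counting error only. With 6 pairs, ratios and shares were tested by exact sign-flip. Samples of 1 tissue came from different animals. The p-values of the tissue tests measure how the AT to SM difference within an animal varied between the 6 animals.

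Each library was compared with its partner: deviations from the tissue means correlated at 0.0218 to 0.187 (median 0.0707) within animals and at a median of -0.0236 between animals. The pairing comes from the labels, which give the same animal number to both biopsies. On simulated counts of 13038 genes for this comparison, 197 genes were raised or lowered by a log2 of 1.5. Of these, 150 were called, none with the wrong sign, and 4 unchanged genes were called. In the measured counts 6738 of 13296 genes were called. How the scaling acts where that many genes differ was not tested.

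Named genes were the 3 most abundant and the most changed members of each list, both genes of each family pair, the 10 most abundant and the 10 most changed genes of each tissue and the 5 genes of smallest animal p, with further list members as the text needed. The 5 genes of smallest animal p were taken among those with a mean of at least 5 CPM over the paired libraries, with XIST left out. Lists, members and tests were chosen with earlier results of these data known. List genes without a row in the table, such as LIPE and CEBPA, were not analysed here.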

Additional observations from a re-analysis of the deposited data

Results flagged for a closer look

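Of 96 sets of libraries (each list's mean log2 CPM within 1 tissue), 9 had a highest or lowest library whose gap to its neighbour was unusually large beside the whole range, by Dixon's ratio; chance gives about 1 in 20. The ratio was 0.844 for slow fibre genes in SM, where 22130 lay at 3.13, the next library at 8.77 and the highest at 9.82. SM of 24849 lay highest on 3 lists: adipocyte markers (ratio 0.666, 5.73 against 3.30 for the next), fatty acid and triglyceride synthesis (0.628, 6.28 against 5.18) and receptors for lipolytic hormones (0.637, 2.24 against 1.18). AT of 23004 lay highest on keratinocyte markers (0.479, 1.93 against 0.588), with KRT5 at 17.2 CPM and PIP at 1006 CPM. The list value rested on KRT5, since the other tested markers were higher in another AT library. SFN was at 2.92 CPM against 3.16 in AT of 19832, and TP63 at 0.960 CPM against 1.11 in AT of 20456.

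The other 4 differed by less than 0.5 on the log2 scale from the next library. SM of 20275 lay highest for nuclear receptors and coactivators (0.828, 5.31 against 4.82), SM of 23004 for the dystrophin complex (0.657, 7.83 against 7.58) and AT of 20456 for fatty acid uptake (0.709, 7.71 against 7.34), and AT of 20275 lay lowest for cytosolic ribosomal proteins (0.544, 6.74 against 7.17).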

How the results depend on the processing

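By library size alone, 6215 genes were higher in AT and 1250 in SM (83.3% of calls towards AT, against 58.4% with TMM), since the median of all genes moved to 0.93; upper quartile scaling gave 4270 and 2405. With a fold change limit of 0.26 or none, 4999 and 4554 passed. The other alternatives for filter, scaling, tool and animals moved neither count by over 1.5 times, at 2708 and 1932 of 10292 genes with at least 10 counts in every library, 3985 and 2860 by DESeq2, 3921 and 2845 by limma voom, and 3811 to 3949 and 2716 to 2913 without any 1 animal. No named gene that was DE changed sign in any of them, though some that were not DE did, such as NR3C1 and HK2; the list medians that turned with library size scaling are named with their lists. Without the animal as a replicate block, 3895 genes were higher in AT and 2881 in SM, and of the named genes 2 lost their call (G0S2 and HRASLS2) and 2 gained one (HK1 and HOXA10); it changed no other call. Leaving out 1 animal, the count share of the 10 most abundant genes differed by -14.0 to -16.1 percentage points (exact p = 0.0625, the smallest for 5 pairs) and 0 isoform families passed in any of these sets, since 5 pairs cannot reach 0.05. The animal effect depended on the tool and on single animals: 0 genes passed with at least 10 counts in every library (684 at an unadjusted p under 0.05), 15 by limma voom, 361 by DESeq2 and 0 to 5 without 1 animal, with 0 without 22130, 1 without 21189, 2 without 20275, 2 without 24849, 3 without 23004 and 5 without 19832; the cause was not tested. The identifiers of libraries ran in 3 series, with 3 SM and 0 AT libraries before treatment in the first and both tissues in the middle and last; with series as a term, 3731 and 2950 genes passed, and with the 3 animals whose libraries share a series, 3626 and 2911. Of the named results 10 lost and 6 gained a call with the term (11 and 6 with the same-series animals); lost in both were ACTA2, BCKDK, CHRNE, COX7A2, G0S2, HIBADH, MS4A1, NFIX, SLC4A1 and TEAD1, and those gained in both included HOXA10, JCHAIN, KLF9, LYVE1 and S100A8, while KLF5 was lost with the same-series animals. Depth limits genes near the floor of 3 counts per library, whose folds are bounds.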

Other observations

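Among genes DE before treatment, 26 were DE in the opposite direction at washout and 0 after treatment; they were chosen after their values were seen. Of these, 19 had been higher in AT and 7 higher in SM. ZBED6, a zinc finger gene, had a log2 fold change of 1.56 before treatment and -5.95 at washout, RC3H2, an RNA-binding ubiquitin ligase, 1.48 and -3.05, HIPK1, a kinase, 1.84 and -2.15, and LNPEP, an aminopeptidase, 1.57 and -1.88. On the other side GPR3 went from -1.16 to 2.01 and AGER from -1.19 to 1.74. The washout comparison rests on 5 animals.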
